A study of Mus musculus with 6 samples.

Results

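Mock MC-38 tumor cells are mouse colon adenocarcinoma cells that serve as the control of a HIF-1α knock-down, and their baseline expression profile is described here. A gene was taken as expressed when its deposited level was at least 1 FPKM (fragments per kilobase of transcript, scaled to the reads of the library) in each of the 3 Mock libraries. By this rule 10330 of the 22880 genes in the table were expressed, which is 45.1%. The cells carried green fluorescent protein (GFP) and the pLKO.1-puro vector with the knock-down label mock, had no in vivo passage according to the labels, and were grown as orthotopic tumors in the cecum wall of C57BL/6J mice. Living GFP+ CD45- CD31- cells were sorted from digested tumors, a gate that leaves out leukocytes and endothelial cells, and single-end reads were taken from their poly-A selected RNA. MC-38 is an established line, and neither the age of the mice nor the number of tumors behind a library is given in the sources used here. The labels do not say that the 3 libraries came from separate animals, so the spread given below is that between these samples and may be technical.

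Carcinoma cells of the colon descend from an epithelium that is held together by E-cadherin, claudins, desmosomes and a keratin skeleton and is specified by factors such as CDX2. Cells in a mesenchymal state instead carry vimentin, fibronectin and N-cadherin, and transcription factors of the ZEB, SNAIL and TWIST families repress epithelial genes through E-box motifs. Both states, together with the matrix, the secreted factors and the receptors a tumor cell makes, can be read from the levels of single genes.

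Between 20836291 and 25089496 reads per Mock library were counted on genes, and an expressed gene had a median of 775.5 reads per library. Hif1a, the target of the knock-down, was at 112, 93.7 and 80.3 FPKM in Mock 1, 2 and 3 and between 11.7 and 54.8 FPKM in the 3 HIF-1α-KD libraries, so no Mock library overlapped the knock-down. Mock 1 stood apart from the others: mitochondrial genes took 3.7% of its reads against 1.62% in Mock 2 and 2% in Mock 3, and its levels moved with the GC content of the transcript. In the lowest decile of GC content the median deviation of Mock 1 from the gene mean was 0.23 on the log2 scale, and in the highest decile it was -0.35. The main counts of genes with a wide spread are therefore also given after a correction for GC content, while levels of single genes are given as deposited. Levels in Mock 2 and 3 also moved with the length of the principal transcript. Mock 2 rose from -0.10 in the shortest decile to 0.17 in the longest, and Mock 3 fell from 0.08 to -0.09. This trend with length was not corrected. The read counts of every pair of libraries varied beyond sampling noise, with a chi-square per degree of freedom of 93.0 between Mock 1 and 2, 86.5 between Mock 1 and 3 and 40.5 between Mock 2 and 3.

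The starts of 4 genes that carry the lineage result are shown here as RefSeq promoter windows of build GRCm38.p6, from 250 bases before to 50 bases after the start. Vim encodes the intermediate filament vimentin and Col3a1 a fibrillar collagen, and both ranked among the highest genes of Mock cells. Epcam encodes an epithelial adhesion molecule and Krt8 a keratin of simple epithelia, and neither was expressed by the rule. The windows lie at chr2:13574061-13574360 (plus strand, Vim), chr1:45311288-45311587 (plus strand, Col3a1), chr17:87635729-87636028 (plus strand, Epcam) and chr15:102004293-102004592 (minus strand, Krt8). Capitals mark the E-box CACCTG that ZEB and SNAIL factors bind, the TATA motif TATAAA and the SP1 motif GGGCGG, each searched on both strands.
Vim: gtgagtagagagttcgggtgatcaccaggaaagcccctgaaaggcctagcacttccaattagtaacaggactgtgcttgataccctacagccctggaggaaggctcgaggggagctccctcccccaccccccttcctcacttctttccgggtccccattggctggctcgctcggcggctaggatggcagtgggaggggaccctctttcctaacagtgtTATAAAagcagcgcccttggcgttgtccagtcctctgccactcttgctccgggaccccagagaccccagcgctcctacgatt
Col3a1: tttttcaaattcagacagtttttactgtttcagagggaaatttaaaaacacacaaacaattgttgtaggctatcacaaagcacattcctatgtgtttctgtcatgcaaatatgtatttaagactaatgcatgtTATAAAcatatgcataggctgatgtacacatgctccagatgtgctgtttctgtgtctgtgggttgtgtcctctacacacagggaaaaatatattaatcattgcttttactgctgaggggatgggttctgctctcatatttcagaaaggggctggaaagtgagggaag
Epcam: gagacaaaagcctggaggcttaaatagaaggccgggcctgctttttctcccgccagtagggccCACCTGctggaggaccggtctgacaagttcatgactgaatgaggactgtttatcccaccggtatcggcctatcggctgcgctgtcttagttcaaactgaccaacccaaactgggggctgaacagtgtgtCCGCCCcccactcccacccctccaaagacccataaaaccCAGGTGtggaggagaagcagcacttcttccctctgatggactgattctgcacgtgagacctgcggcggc
Krt8: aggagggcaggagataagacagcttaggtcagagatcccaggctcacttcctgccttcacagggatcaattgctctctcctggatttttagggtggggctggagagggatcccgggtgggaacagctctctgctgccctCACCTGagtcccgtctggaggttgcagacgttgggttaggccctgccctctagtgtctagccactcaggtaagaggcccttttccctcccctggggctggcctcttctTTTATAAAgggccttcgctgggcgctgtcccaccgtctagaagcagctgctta
The Epcam window held 2 E-boxes and 1 SP1 motif, and the Krt8 window held 1 E-box. In Krt8 the TATA motif was counted 2 times, since the letters of the plus and the minus strand overlap. The Vim and Col3a1 windows each held 1 TATA motif and no E-box. The Col3a1 window had no CpG, whereas that of Vim had 11.

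Of all protein-coding genes, 13277 had a single promoter window, and 6255 of these were expressed. The ratio of observed to expected CpG had a median of 0.802 over the expressed and 0.256 over the other genes, and it was at least 0.6 in 79.9% and 21.7% of them. The TATA motif was found in 13.6% of all windows, 6.44% of the expressed and 20% of the other genes. The SP1 motif stood in 47.2% of all windows, 69.6% of the expressed and 27.3% of the other genes. Among the 100 expressed genes with a window and the highest levels, 19% held the TATA motif, more than in any decile of the expressed genes, where it ranged from 3.84% to 10.4%. The E-box was found in 19.4% of all windows, 14.8% of the expressed and 23.5% of the other genes. On the list of epithelial junctions and keratins, 11 of the 14 windows of genes not expressed held an E-box (Cldn3, Cldn4, Dsp, Elf3, Epcam, Krt18, Krt7, Krt8, Lgals4, Rab25 and Spint2), against 1 of 4 windows of expressed genes (F11r). On the mesenchymal list it was 2 of 12 windows of expressed genes (Snai1 and Sparc). The lists hold 36 and 25 genes, and members without a single window, Cdh1 and Zeb1 among them, were not counted. A motif match is a run of letters in a window and was not tested for binding or for an effect on expression.

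**Figure D1:**
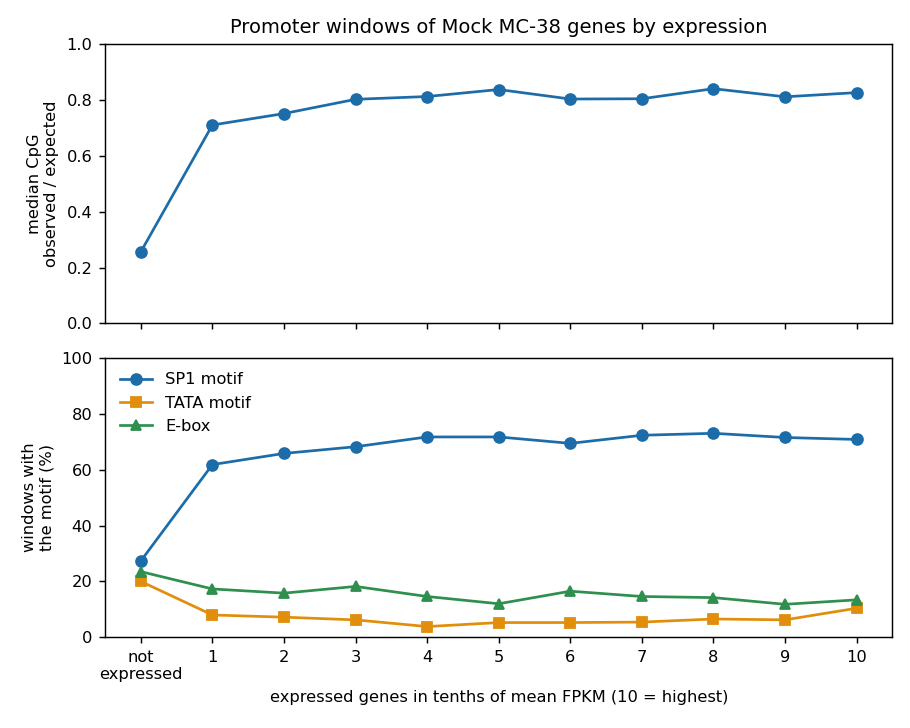
Promoter windows (250 bases before to 50 after the start) of genes not expressed and of expressed genes in deciles of mean FPKM. The upper panel gives the median ratio of observed to expected CpG and the lower panel the percentage of windows with the SP1 motif, the TATA motif or the E-box. The CpG ratio stepped from 0.256 to 0.71 between the genes not expressed and the lowest decile, and stayed between 0.71 and 0.84 above it.

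Of the 20 highest genes, 8 encode ribosomal proteins, and Lgals1 and Vim of the mesenchymal list stood among them. Eef1a1 (chr9:78478449-78489151), the elongation factor that brings aminoacyl-tRNA to the ribosome, was highest at 22210, 15390 and 16460 FPKM in Mock 1, 2 and 3. It was the only gene of the 20 whose range did not overlap that of the next one, mt-Co1, a subunit of cytochrome c oxidase, at 14800, 5666 and 7196 FPKM. The chaperone gene Hsp90ab1 was at 6224, 7402 and 7482 FPKM. In the other 18 of the 19 neighbouring pairs the ranges of the libraries overlapped, so their order is not set by these data.

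Below them came Rps12 at 5784 ± 674 FPKM, Rplp0 at 5710 ± 537 FPKM and Rps4x at 5226 ± 1079 FPKM (mean ± SD, n = 3 here and below), all parts of the ribosome. The mitochondrial mt-Cytb, a subunit of complex III, was at 4879 ± 1255 FPKM, and β-actin (Actb) at 3968 ± 1047 FPKM. Tpt1, a growth-related protein bound by tubulin, was at 3874 ± 948 FPKM. The galectin gene Lgals1 (chr15:78926725) was at 3509, 3703 and 4288 FPKM. Fth1, the iron-storing ferritin heavy chain, was at 4867, 3680 and 2330 FPKM, lowest in Mock 3, and only it and mt-Co1 of the 20 differed at least 2-fold between libraries, as 7.17% of all expressed genes did. Rps18, Rpl19, Rps2, Rpl23 and Rpl10 were between 2976 and 3532 FPKM on average. The calcium-binding protein gene S100a6 was at 3194 ± 397 FPKM, Vim at 3222, 2899 and 2904 FPKM, the glycolytic Gapdh at 2948 ± 200 FPKM and the MHC class I gene H2-D1 at 2226, 2751 and 3699 FPKM. H2-D1 was lowest in Mock 1 and highest in Mock 3, while Vim differed little between libraries.

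**Figure D2:**
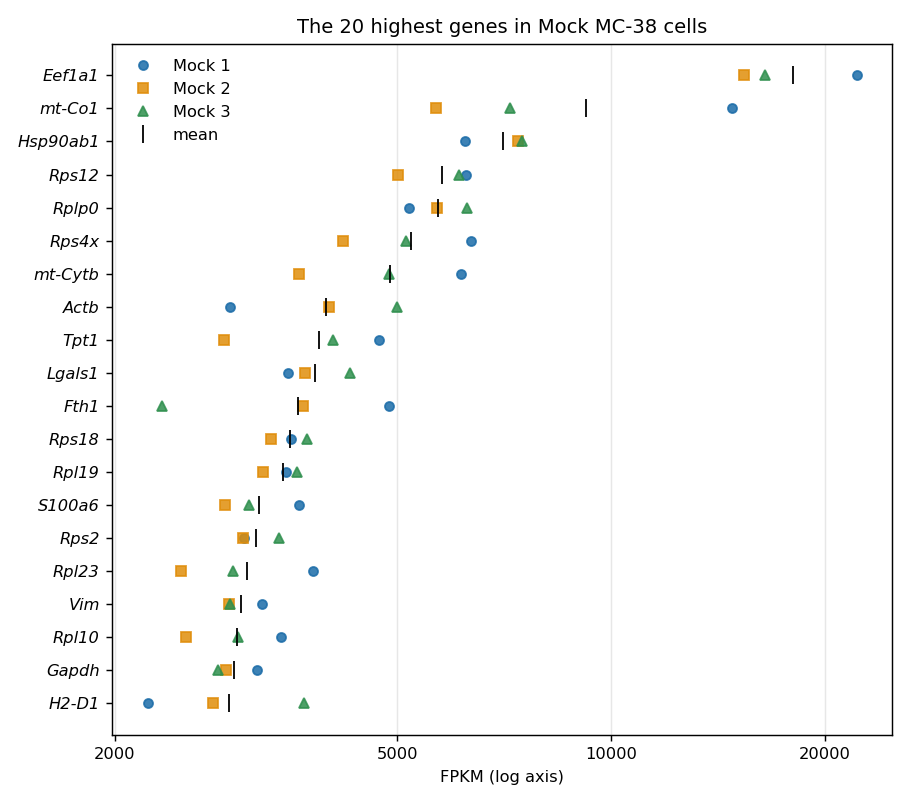
FPKM (log axis) of the 20 genes with the highest mean in the Mock libraries, with 1 symbol per library and a black bar at the mean. Eef1a1 sits at 15390 to 22210 FPKM, apart from the rest, and the ranges of later neighbours overlap.

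The profile was steep. The 10 highest genes took 9.26 ± 1.23% of the summed FPKM, the 100 highest 33.7 ± 2.09% and the 1000 highest 68.4 ± 1.83%. Of the expressed genes, 6814 had a mean of at least 10 FPKM, 1168 of at least 100 and 120 of at least 1000, and the median was 17.6 FPKM. A level per length depends on the length used: the deposited width is close to the mean length of a gene's annotated transcripts, and the principal transcript was 1.48 times as long at the median. Ranked by the principal transcript, 13 of the 20 and 83 of the 100 highest genes were shared with the ranking above, and Hsp90ab1 went from rank 3 to 19.

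Mock cells had few transcripts of epithelial and colonic identity and high levels of mesenchymal genes. Of 36 genes of epithelial junctions and keratins, 8 were expressed (22.2%), and of 38 genes of colonic and intestinal identity 4 were (10.5%). Over all genes in the table the share was 45.1%. Of 25 mesenchymal genes, 20 were expressed (80%), with a median of 28.1 FPKM against 17.6 FPKM over all expressed genes. The 45.1% of all genes is also the share to set beside the counts of the lists below. The 10 markers taken to define a colon epithelium, whose values follow, were under 1 FPKM in Mock 1 and 2, and 4 of them, Cdh1, Krt8, Krt18 and Krt20, were above it in Mock 3.

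The E-cadherin gene Cdh1 was at 0.905, 0.539 and 1.31 FPKM in Mock 1, 2 and 3, above 1 in Mock 3 only. Epcam was at 0.141, 0.0781 and 0.719 FPKM, and Krt8 (chr15:101996698-102004482) at 0.133, 0.266 and 4.15 FPKM, from 5, 12 and 158 reads. Its partner Krt18 was at 0.0343, 0.0854 and 1.39 FPKM, and Krt20, a keratin of the mature gut lining, at 0.0497, 0.0413 and 1.45 FPKM. Mock 3 was highest for all 5 of these markers. Over the 28 list members not expressed it was highest for 22, over the 34 of the colonic list for 17, and over all 5332 genes not expressed that had a read in some Mock library for 31.8%. Of the 28 and the 34, 3 and 5 had no read in any Mock library. The 28 members' summed level was 5.53, 5.16 and 26.6 FPKM. Krt19, chosen after its values were seen, was at 0.147, 0.244 and 4.82 FPKM. Esrp2 and Ovol2 had no read in any Mock library.

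The expressed members of the epithelial list were mostly adaptor and tight junction genes that other cell types also use. Cldn12, a claudin, was at 48.9 ± 7.58 FPKM, and the p120 catenin gene Ctnnd1 at 29.4 ± 2.33 FPKM. The scaffold gene Tjp1 was at 17.5 ± 3.71 FPKM and plakoglobin (Jup) at 14.7 ± 5 FPKM. Cldn1, Pkp3 and F11r were between 1.56 and 2.31 FPKM on average.

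Of the colonic list, Cd44, a hyaluronan receptor, was at 179, 153 and 209 FPKM, and the transcription factor Sox9 at 12.7, 15.5 and 16.5 FPKM. The ephrin receptors Ephb3 and Ephb2 were at 2.09 ± 0.835 and 1.85 ± 0.693 FPKM. The intestinal master regulator Cdx2 was at 0 in Mock 1 and 2 and at 0.0419 FPKM in Mock 3, and Cdx1 was between 0.0823 and 0.135 FPKM. The microvillus gene Vil1 was at 0.117, 0.13 and 0.769 FPKM, the mucin gene Muc2 at 0.15, 0.0311 and 0.296 FPKM and the stem cell marker Lgr5 at 0.0597, 0 and 0.0589 FPKM. Atoh1, Car4, Fabp1, Fabp2 and Isx were at 0 in every Mock library.

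On the mesenchymal list, Vim and Lgals1 are given above. S100a4, a calcium-binding protein linked to motility, was at 2297, 1413 and 1202 FPKM, highest in Mock 1. The matrix protein genes Sparc and Fn1 were at 1096, 1479 and 1780 FPKM and at 635, 1108 and 1347 FPKM, both lowest in Mock 1. The repressor genes Zeb1 and Snai2 were at 29.9, 36.4 and 25.3 FPKM and at 15.1, 9.76 and 16 FPKM. N-cadherin (Cdh2) was at 9.96, 11.3 and 8.78 FPKM, above every value of Cdh1. Of the 25 genes only Cdh11, Cnn1, Fap, Postn and Tagln missed the rule.

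**Figure D3:**
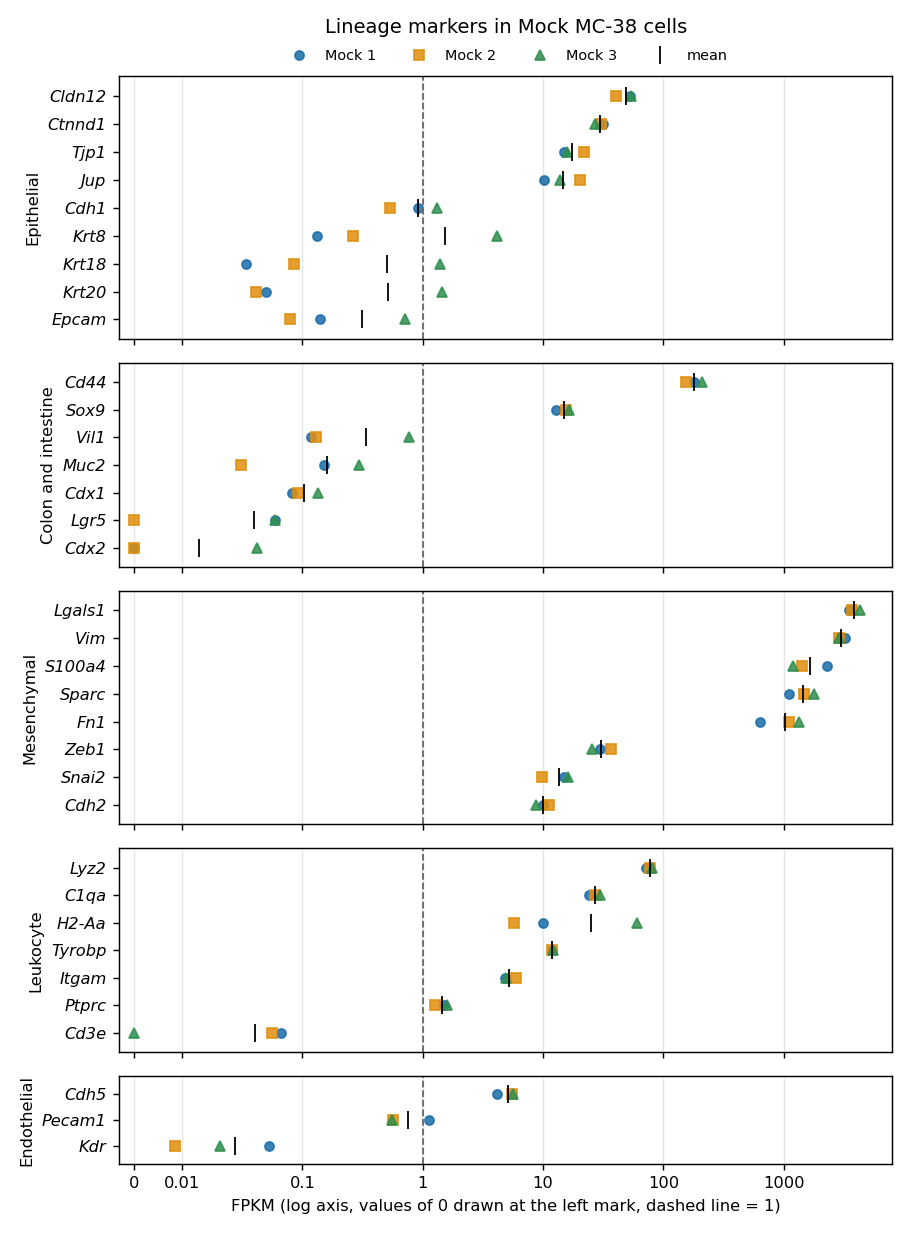
FPKM (log axis, values of 0 at the left mark) of lineage markers in Mock 1, 2 and 3, with black bars at the means and a dashed line at the limit of 1 FPKM. The epithelial markers Cdh1, Krt8, Krt18, Krt20 and Epcam lie around or under the line and are highest in Mock 3, whereas the 8 mesenchymal genes drawn lie between 8.78 and 4288 FPKM. Other members of both lists lie elsewhere, such as Cldn12 at 48.9 and Acta2 at 3.53 FPKM on average.

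Markers of other cells that a tumor can hold were measured in the same libraries. In bulk RNA, fewer cells of a type and less RNA per cell cannot be told apart. Of 22 leukocyte genes 17 were expressed, or 77.3% against 45.1% of all genes in the table. The list had a summed level of 240, 259 and 383 FPKM in Mock 1, 2 and 3. The macrophage lysozyme gene Lyz2 was at 72, 77.7 and 80.6 FPKM, the complement genes C1qa and C1qb at 26.9 ± 2.95 and 26.7 ± 2.96 FPKM, and Laptm5 at 23.4 ± 2.48 FPKM. Tyrobp, an adaptor of myeloid receptors, was at 11.9, 11.9 and 12.1 FPKM, Itgam at 5.22 ± 0.639 FPKM, and Ptprc, which encodes the CD45 used in the gate, at 1.5, 1.27 and 1.59 FPKM. The T cell gene Cd3e was at 0.0667, 0.0554 and 0 FPKM. Of these, Lyz2, C1qa, C1qb, Laptm5 and Tyrobp differed little between the libraries. The part of leukocyte RNA in the levels below was not tested.

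The MHC class II genes behaved otherwise: H2-Aa was at 10, 5.71 and 60 FPKM, from 171, 117 and 1036 reads, and H2-Ab1 at 6.24, 3.05 and 29.8 FPKM. The invariant chain gene Cd74 was at 6.04, 6.73 and 46.8 FPKM and H2-Eb1 at 2.03, 2.3 and 21.6 FPKM. In Mock 3 all 4 stood at least 4-fold above the other libraries, while Lyz2 was 1.12 times as high in its highest as in its lowest library.

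Of 14 endothelial genes 2 were expressed, VE-cadherin (Cdh5) at 4.13, 5.55 and 5.58 FPKM and Egfl7 at 4.37 ± 0.47 FPKM. Pecam1, which encodes the CD31 of the gate, was at 1.13, 0.565 and 0.555 FPKM, and the VEGF receptor gene Kdr was at or below 0.0527 FPKM. The summed level of this list was 9.87, 11.8 and 10.9 FPKM. The fibroblast list had 9 of 12 genes expressed and a summed level of 2457, 5796 and 4535 FPKM, most of it from collagens and Dcn. Pdgfra, a receptor of fibroblasts and other mesenchymal cells, was at 33, 35.5 and 21 FPKM and the proteoglycan gene Lum at 9, 12 and 12.4 FPKM. Whether such transcripts came from the GFP+ cells or from fibroblasts in the sort was not tested.

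Pericyte and smooth muscle genes were expressed for 4 of 12, led by Pdgfrb at 25.7 ± 11.3 FPKM. Rgs5 was at 0.259, 0.529 and 0.451 FPKM, Myh11 was at 0, 0.012 and 0 FPKM, and Higd1b was at 0 throughout. Of 11 genes of enteric neurons and glia 2 passed, Tubb3 and Prph, both of them cytoskeletal. The glial gene Sox10 was at 0.0708, 0.147 and 0.0698 FPKM, and Elavl4, S100b and Snap25 were at 0. The globin gene Hbb-bs was at 56.6, 22.8 and 49.7 FPKM, lowest in Mock 2.

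Collagens were expressed about as often as other genes, for 18 of 44 or 40.9% against 45.1% of the table, and all 18 were lowest in Mock 1, before and after correction for GC content. Over all expressed genes, 38.2% were lowest in Mock 1 and 34.1% after the correction. Col3a1 was at 1400, 3109 and 1838 FPKM, and the genes of type I collagen, Col1a1 and Col1a2, were at 216, 1471 and 1035 FPKM and at 131, 551 and 392 FPKM. The type V genes Col5a1, Col5a2 and Col5a3 averaged 167 ± 87.1, 148 ± 66.9 and 138 ± 63.2 FPKM. In each of these genes both other libraries lay above Mock 1. A 2-fold spread, meaning that the highest library had at least 2 times the normalized count of the lowest, was found for 741 of the 10330 expressed genes or 7.17%, and for 14 of the 18 collagens. After correction for GC content a 2-fold spread was found for 4.5% of all expressed genes. Both before and after it, 5 of 6 fibrillar and 6 of 12 other collagens had such a spread, against 3.55% of all expressed genes. Without Mock 1 it was found for 0 of the 18 collagens, whose largest ratio between Mock 2 and 3 was 1.78, and for 1.56% of all expressed genes. All 4 expressed pericyte and smooth muscle genes were also lowest in Mock 1 before and after the correction, and so were 6 of 9 fibroblast genes (7 after it), 3 of which are themselves collagens. Pdgfrb was at 17.5, 38.6 and 21.1 FPKM and Acta2 at 1.4, 3.47 and 5.71 FPKM, and the part of such cells in the collagen levels was not tested.

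Among the other collagens, Col6a1, Col6a2 and Col6a3, which form the microfibrils of type VI collagen, were at 953, 1907 and 1381 FPKM, at 331, 785 and 498 FPKM and at 181, 400 and 429 FPKM. The basement membrane genes Col4a1 and Col4a2 were at 51.2, 187 and 147 FPKM and at 40.7, 152 and 127 FPKM. Col16a1 had the widest spread of this list, at 29.2, 111 and 144 FPKM. The cartilage collagen Col2a1, chosen after its values were seen, was at or below 0.349 FPKM.

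Laminins and their linkers were expressed for 11 of 17 genes. The laminin chains Lamc1, Lamb1 and Lamb2 were at 194 ± 61.4, 166 ± 78.4 and 29.5 ± 9.25 FPKM, the perlecan gene Hspg2 at 31.9, 109 and 130 FPKM and the nidogen gene Nid1 at 41.6 ± 6.64 FPKM. The α chains, named after their values were seen, were lower, with Lama5 at 4.06 ± 1.12 and Lama4 at 3.74 ± 2.1 FPKM, Lama1 at 0 and Lama2 and Lama3 under the limit. Of 37 matrix glycoproteins 23 were expressed, with Spp1 (osteopontin), a secreted ligand of CD44 and integrins, at 965, 1215 and 1609 FPKM, and with Efemp2 and Fbln2, both elastic fibre proteins, at 361 ± 63.9 and 351 ± 151 FPKM. Proteoglycan genes were expressed for 13 of 25, led by decorin (Dcn) at 482, 467 and 906 FPKM, highest in Mock 3, and followed by the syndecans Sdc2 and Sdc4 at 174 ± 12.5 and 166 ± 17.6 FPKM, Vcan at 98.7 ± 32.2 FPKM and Gpc1 at 97.9 ± 43.9 FPKM.

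Enzymes that fold and crosslink collagen were expressed for 23 of 26 genes. P4hb, a subunit of prolyl hydroxylase, was at 2190, 2184 and 2381 FPKM and nearly level between the libraries. Ppib was at 562 ± 37.4 FPKM, the lysyl hydroxylase genes Plod2 and Plod1 were at 242 ± 31.4 and 210 ± 32 FPKM, and the collagen chaperone gene Serpinh1 was at 324, 552 and 698 FPKM, lowest in Mock 1. Of 47 proteases and inhibitors 27 were expressed. The serine protease gene Htra1 was at 923, 902 and 1287 FPKM, the cathepsins Ctsd and Ctsl at 592 ± 77.5 and 587 ± 102 FPKM, and the inhibitor gene Timp2 at 369 ± 36.5 FPKM. The membrane-bound Mmp14 was at 174, 328 and 304 FPKM. The gelatinase genes went apart: Mmp9 was at 83.3, 286 and 374 FPKM, lowest in Mock 1, and Mmp2 was at 226, 293 and 85.6 FPKM, lowest in Mock 3.

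Genes were ranked among the 462 expressed ones that the deposited annotation places in the extracellular space or region and not under its general terms for cytosol, nucleus or ribosome. The list is one of annotation: it leaves out Sparc, which is also annotated to the nucleus, and it holds the membrane receptor gene Axl and Fau, annotated to the small ribosomal subunit. The highest was B2m, the light chain of MHC class I, at 2876, 2010 and 2835 FPKM. It was followed by Col3a1, Col6a1, the ribosomal fusion gene Fau at 1401 ± 422 FPKM, Spp1, the reticulum protein gene Calu at 1196 ± 128 FPKM, Htra1, Fn1, and Igfbp4, which binds insulin-like growth factors, at 954 ± 130 FPKM. Then came Col1a1, Grn at 706 ± 87.7 FPKM, Dcn, Ctsd, the protease inhibitor gene Cst3 at 578 ± 79.5 FPKM, Psap, a precursor of lysosomal activators, at 571 ± 30.2 FPKM, Col6a2, Serpinh1, Axl, Fstl1 at 440 ± 43.8 FPKM and Serpinb6a at 383 ± 89.4 FPKM. With the length of the principal transcript the order changes, and Fau (1193 FPKM) and Spp1 (888.5 FPKM) come before Col6a1 (865.4 FPKM) and Col3a1 (688.2 FPKM). Of the 462 genes, 94 or 20.3% had a 2-fold spread, against 7.17% of all expressed genes, and 72 or 15.6% against 4.5% after correction for GC content.

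Of 37 chemokines on the list 36 were in the table and 15 were expressed, or 41.7% against 45.1% of all genes. The monocyte attractants Ccl2 and Ccl7 were at 270, 297 and 173 FPKM and at 45.8, 59.8 and 34.5 FPKM, both lowest in Mock 3. Cxcl10, an interferon-induced ligand of CXCR3, was at 80, 112 and 135 FPKM, Cxcl1, which attracts neutrophils, at 26.8, 54.8 and 20.8 FPKM, and Ccl5 at 25.6 ± 2.96 FPKM. Cxcl9 was at 2.52, 2.21 and 11.3 FPKM and had the widest spread of the expressed chemokines. Cxcl12, a chemokine of stromal cells named after its values were seen, was at or below 0.0825 FPKM.

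Cytokines and colony-stimulating factors were expressed for 17 of 40 genes, or 42.5% against 45.1% of all genes in the table. Mif was at 440, 667 and 840 FPKM. The macrophage growth factors Csf1 and Il34 were at 60.9, 93.3 and 103 FPKM and at 39.6, 36.6 and 49.7 FPKM, and the alarmin gene Il33 was at 44.8, 64.3 and 98.1 FPKM, lowest in Mock 1. Tnfsf12, which encodes TWEAK, was at 26.5 ± 3.84 FPKM. Ifng, Fasl, Il12a and Il12b, products of lymphocytes and dendritic cells, were at 0 in each library.

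Growth factors were expressed for 30 of 56 genes, or 53.6% against 45.1% of all genes in the table. Grn and Hdgf were at 706 ± 87.7 and 701 ± 30.8 FPKM, Igf2 was at 193, 181 and 66 FPKM, and Angptl2 at 116 ± 8.75 FPKM. Of the angiogenic genes, Vegfb was at 72.6 ± 14 FPKM and Vegfa, named after its values were seen, at 59.6, 60 and 60.1 FPKM. The widest spreads were those of Vegfc (3.34, 2.63 and 9.01 FPKM), Angpt1 (12.7, 10.8 and 3.52 FPKM) and Igf2. Of 31 WNT ligands and modulators 3 were expressed, Wnt5a at 15.7, 19 and 13.5 FPKM, Dkk2 at 3.56 ± 0.696 FPKM and Wnt6 at 1.69 ± 0.403 FPKM, and 15 were at 0 in all Mock libraries.

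Receptor tyrosine kinases were expressed for 26 of 56 genes, or 46.4%. This share, and those of integrins (46.2%), cytokine and interferon receptors (47.9%) and the TNF receptor superfamily (46.4%), lay near the 45.1% of all genes in the table. Axl, a receptor of the TAM family, led with 416, 444 and 514 FPKM, followed by Fgfr1 at 153, 235 and 166 FPKM, Ryk at 160 ± 17.2 FPKM, the collagen receptor gene Ddr2 at 100 ± 7.37 FPKM and Epha2 at 31.7, 49.9 and 82.6 FPKM. Of the 26 genes, 6 had a 2-fold spread, Epha2 among them, and 2 had it after correction for GC content, against 7.17% and 4.5% of all expressed genes. Without Mock 1 it was 1 of the 26, against 1.56% of all expressed genes. Egfr, named after its values were seen, was at 0.568, 0.929 and 0.399 FPKM, under the limit in every library. Integrins were expressed for 12 of 26 genes. The shared β1 chain gene Itgb1 was at 520, 503 and 582 FPKM, Itgav at 81.5 ± 11.6, Itgb5 at 65.6 ± 9.91, the fibronectin-binding Itga5 at 36.4 ± 10.2 and the leukocyte chain gene Itgb2 at 34.8 ± 5.31 FPKM.

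Cytokine and interferon receptors were expressed for 23 of 48 genes. Ifngr1, which binds interferon-γ, was at 127, 147 and 189 FPKM. Il1rl1, the receptor of IL-33, was at 85.1, 55.5 and 98.5 FPKM, and its partner Il1rap at 37.9 ± 3.29 FPKM. The shared chains Il6st and Il2rg were at 60.7 ± 7.43 and 37.9 ± 11.6 FPKM. Of the TNF receptor superfamily 13 of 28 were expressed, with Tnfrsf1a at 97.3, 112 and 103 FPKM, the TWEAK receptor gene Tnfrsf12a at 66, 86.3 and 159 FPKM, Ltbr at 64.6 ± 11.7, Tnfrsf1b at 36.0 ± 6.76 and Tnfrsf9 at 24.4, 22.2 and 50.9 FPKM. Tnfrsf12a and Tnfrsf9 were highest in Mock 3, whereas Tnfrsf1a was nearly level.

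TGF-β and BMP receptors were expressed for 10 of 14 genes, led by Tgfbr3 at 61.9, 74.8 and 40.2 FPKM, Bmpr1a at 46.5 ± 8.07 FPKM and Tgfbr2 at 23.6 ± 4.32 FPKM. Of these, 0 had a 2-fold spread before and 1 had it after correction for GC content, against 7.17% and 4.5% of all expressed genes. Of the 10, 9 were lowest in Mock 3 before and after it, as were 33.5% and 32.9% of all expressed genes. Their principal transcripts had a median of 5052 bases against 2978 over all expressed genes. The part of the trend with length in this was not tested. WNT and NOTCH receptors were expressed for 7 of 19, with Lrp5, Notch1 and Notch2 at 28.1 ± 9.03, 18.4 ± 9.14 and 17.9 ± 4.31 FPKM. Of 23 chemokine receptors 5 passed, led by the scavenger receptor gene Ackr3 at 18.5, 13 and 26.4 FPKM. Among Toll-like receptors and their adaptors 9 of 16 passed, with Myd88 at 26.3 ± 3.81, Ly96 at 11.1 ± 2.41 and Tlr4 at 8.76 ± 1.63 FPKM. Traf6, a ubiquitin ligase of these pathways, was at 8.74, 7.51 and 5.37 FPKM, lowest in Mock 3.

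**Figure D4:**
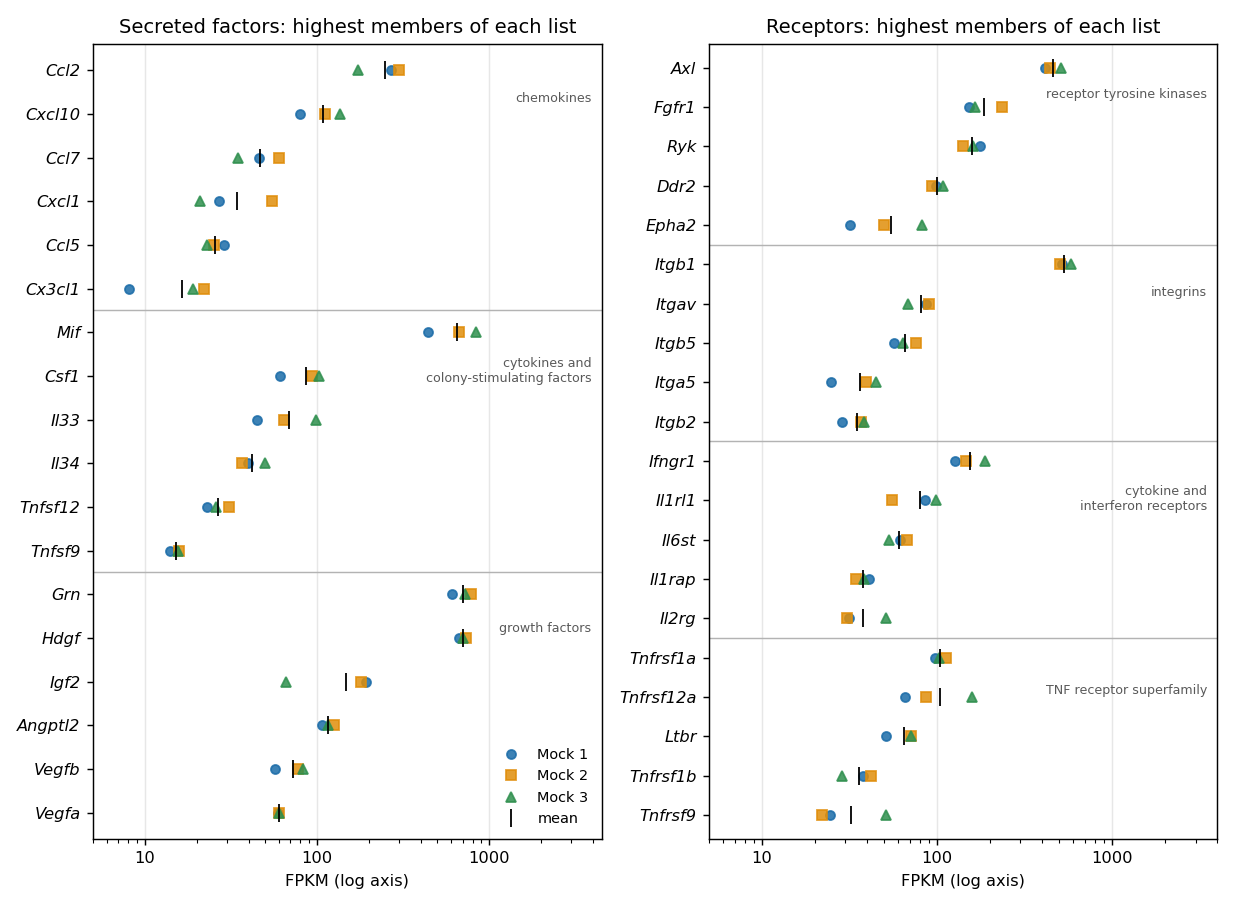
FPKM (log axis) of the highest expressed members of 3 lists of secreted factors (6 genes each) and 4 lists of receptors (5 genes each) in Mock 1, 2 and 3, with black bars at the means. Grn, Hdgf and Mif are the highest secreted factors drawn, at 706, 701 and 649 FPKM on average with overlapping ranges, and Itgb1 and Axl the receptors at 535 and 458 FPKM.

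Several ligands were expressed together with a receptor. Of 20 known pairs, which were chosen after the levels were seen, 15 had both members at or above the limit. This count depends on the choice of pairs, and no share over other pairs was computed. Among the 15 were Csf1 and Il34 with Csf1r, a gene of the leukocyte list at 3.22 FPKM, and Cx3cl1 with Cx3cr1 at 1.89 FPKM. The part of leukocyte RNA in these receptor levels was not tested. Il33 and Il1rl1 averaged 69.1 and 79.7 FPKM, Pdgfa and Pdgfra 41.7 and 29.8 FPKM, and Spp1 and Cd44 1260 and 180 FPKM. Tnfsf12 and its receptor Tnfrsf12a averaged 26.5 and 104 FPKM. For Ccl2, Cxcl10 and Vegfa, at 247, 109 and 59.9 FPKM, the receptor genes Ccr2, Cxcr3 and Kdr were at 0.394, 0.0534 and 0.0274 FPKM, while Flt1, another receptor gene for Vegfa, was at 7.6 FPKM. Axl was expressed with its ligand gene Pros1 at 22.3 FPKM, while its other ligand gene Gas6 averaged 0.44 FPKM.

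Of 23 MHC class I and checkpoint genes 18 were expressed, and 11 of the 18 were highest in Mock 3 (14 after correction for GC content), as were 31.5% of all expressed genes (33.9% after it). MHC class II genes and the keratins given above were also highest in Mock 3, and their part in this was not tested. The leukocyte list without H2-Aa, H2-Ab1 and Cd74 summed to 218, 244 and 246 FPKM. H2-K1 was at 1183, 1538 and 2036 FPKM, and the peptide loading genes Tapbp and Tap1 were at 357, 525 and 736 FPKM and at 99.8, 123 and 161 FPKM. The PD-L1 gene Cd274, named after its values were seen, was at 3.59, 3.79 and 4.82 FPKM, while Pdcd1lg2 and Vtcn1 were at or near 0. Interferon-stimulated genes were expressed for all 27 in the table, and 25 of them were highest in Mock 3, or 23 after the correction. Ifitm3 was at 336, 420 and 521 FPKM, Bst2 at 151, 203 and 340 FPKM, the immunoproteasome gene Psmb8 at 188, 178 and 240 FPKM and Irf1 at 122, 140 and 147 FPKM. Of the 27, 1 had a 2-fold spread, Bst2, against 7.17% of all expressed genes. Their median deviation was -0.22, -0.09 and 0.31 in Mock 1, 2 and 3 on the log2 scale, against 0.01, 0.02 and 0.00 over all expressed genes, and -0.19, -0.09 and 0.32 after correction for GC content.

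Hypoxia is sensed through prolyl hydroxylases that mark the HIF α subunits for decay. Among the subunits, Hif1a and its partner Arnt were expressed, Arnt at 43.4, 45 and 39.1 FPKM. Epas1, which encodes HIF-2α, was at 0.19, 0.713 and 0.526 FPKM, and Hif3a at 0.407, 0.574 and 0.12 FPKM, under the limit in every library. The oxygen sensors Egln1 and Egln3 were at 95.4, 83.2 and 77.8 FPKM and at 72.8, 61.6 and 132 FPKM, and Vhl, the recognition subunit of the ligase, was at 38.3 ± 7.07 FPKM. Of 37 genes known to be induced by hypoxia 35 were expressed, with a median of 155 FPKM against 17.6 FPKM over all expressed genes. Of the 35, 23 were highest in Mock 1 (22 after correction for GC content), as were 38.3% of all expressed genes (35.6% after it), and 21 were lowest in Mock 2 (25 after it), as were 28.3% of all expressed genes (33% after it). Ldha was at 3083, 2700 and 2748 FPKM, Aldoa at 2433 ± 207, Eno1 at 2388 ± 227, Anxa2 at 1954 ± 302 and Tpi1 at 1371 ± 40.5 FPKM, and all but Anxa2 are glycolytic enzymes. Adm and Slc2a3 were the only members that missed the rule.

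Proliferation genes were expressed for 26 of 28. The topoisomerase gene Top2a was at 301, 480 and 358 FPKM, Pcna at 194 ± 19.4, Mcm7 at 180 ± 36.5, Ccnd1 at 164 ± 29.5 and Cdk1 at 151 ± 9.59 FPKM. Of the 26, 21 were highest in Mock 2 (20 after correction for GC content), as were 30.2% of all expressed genes (30.5% after it), and none had a 2-fold spread, against 7.17% of all expressed genes. Mki67 missed the rule by 1 library, at 0.87, 3.79 and 3.92 FPKM. All 45 genes on the list of cytosolic ribosomal proteins, which does not hold every such gene of the table, were expressed, with a median of 1780 FPKM, and none of them had a 2-fold spread either. Of the 45, 35 were lowest in Mock 2 (40 after correction for GC content), as were 28.3% of all expressed genes (33% after it). Their principal transcripts had a median of 906 bases against 2978 over all expressed genes, and the part of length was not tested.

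Across all expressed genes the libraries had a median coefficient of variation of 15.9%, with quartiles of 10.1% and 23.3%, where sampling of reads alone gives a median of 3.57%. The biological coefficient of variation of edgeR was 20.5%. Of the 741 genes with a 2-fold spread, 424 were lowest in Mock 1 and 293 were highest in Mock 3. In Mock 1, 150 genes (1.45%) were at least 2-fold below each of the other libraries and 26 (0.252%) above. In Mock 2 these counts were 10 (0.0968%) in either direction, and in Mock 3 they were 47 (0.455%) below and 35 (0.339%) above. After correction for GC content Mock 1 had 58 genes (0.561%) below and 19 (0.184%) above, Mock 2 had 10 below and 7 above, and Mock 3 had 47 below and 34 above. After correction for GC content 465 genes had a 2-fold spread, and 367 of the 741 were among them.

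Among genes with at least 100 normalized counts in the highest library, the actin regulator gene Avil had the widest spread of those expressed by the rule, at 34.3, 9.13 and 2.62 FPKM. The prolactin family gene Prl2c3 followed at 8.24, 4.17 and 51.2 FPKM, and part of its reads could belong to its close relatives. H2-Aa, H2-Ab1, H2-Eb1 and Cd74 held 4 of the 10 highest places. The matrix gene Dpt was at 1.4, 2.99 and 14.9 FPKM, the focal adhesion gene Tns1 at 9.03, 24.1 and 2.76 FPKM and 4930550L24Rik at 11.6, 1.64 and 2.58 FPKM. Col1a1, at 6.38-fold and at 5.65-fold after correction for GC content, was the only one of the 10 above 100 FPKM on average. Krt19 and Krt8, which missed the rule, spread further, at 32.7-fold and 31.0-fold, but with only 3 and 5 reads in the lowest library. The highest libraries of the 10 genes were not the same: Avil and 4930550L24Rik were highest in Mock 1, Tns1 and Col1a1 in Mock 2 and the other 6 in Mock 3.

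**Figure D5:**
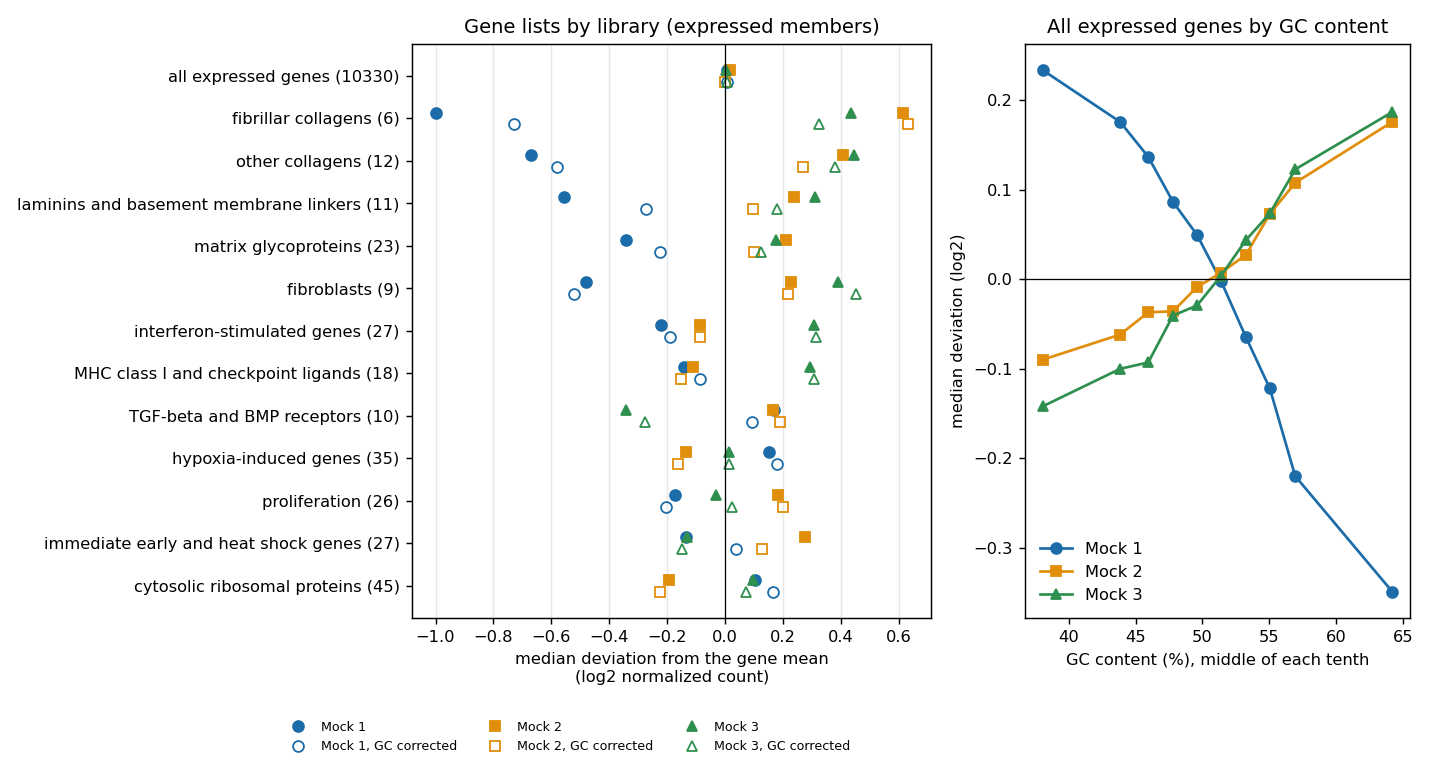
Left, median deviation of the expressed members of 12 gene lists and of all expressed genes (number in brackets) from the gene mean in each Mock library, in log2 normalized count, before (filled) and after (open) correction for GC content. Right, the same over all expressed genes in deciles of GC content, where Mock 1 falls from 0.23 to -0.35. Fibrillar collagens stand at -1 in Mock 1 before and at -0.73 after the correction.

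The limit of 1 FPKM divides genes whose levels barely differ. Just inside it were Gm15091, Flrt3, Aak1, Krt80 and Acad10, whose lowest libraries were at 1.002, 1.003, 1.003, 1.003 and 1.004 FPKM. Just outside were Glb1l and Rgs1 at 0.9991 FPKM each, Hkdc1 at 0.9961 and Sort1 at 0.994 FPKM. Another 653 genes reached the limit in 1 or 2 Mock libraries only, and 7218 genes had no read in any of the 3. Expressed genes had at least 6 reads in each library, and 26 had fewer than 20 in some library.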

How the data were processed

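The series holds 6 libraries, and the 3 labelled mock were used here, grouped by the knock-down label. Per the methods, trimming was followed by alignment with STAR, counting with featureCounts and a comparison with DESeq2, where the labels name edgeR. The labels name the build GRCm38 and the methods GRCh38, and the gene identifiers are those of mouse. The authors deposited 1 table of 22880 genes, in which each normalized count is a signal, the read count divided by 1 factor per library. The authors also deposited FPKM values, based on the width of the gene. GC content was deposited as a fraction per gene. The deposited log2 ratio, p-value and false discovery rate compare the knock-down with Mock cells and were not used.

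Reads were recovered by dividing each normalized count by the smallest step of its library, and 100.0% of values up to 300 reads were whole within 0.2 reads. Larger read counts were not checked in this way and are approximate. The members, gene lists and pairs were chosen with earlier results of these data known. The genes named are the 20 highest, up to 5 highest members and the defining markers of each list, the 20 highest extracellular genes, the 10 with the widest spread at 100 or more normalized counts, the 5 nearest the limit on each side and the 3 widest of a list described by spread. Members named as missing the rule or as having no read, the genes of the promoter windows and others so marked fall outside this rule and were chosen after their values were seen. Some genes that the rule names are not reported here. Deviations are log2(normalized count + 1) minus the mean over the 3 libraries, and the correction for GC content subtracts a loess curve (span of 0.3) per library. Groups were set side by side for Hif1a only, to check the labels. Pairs of libraries were described by a chi-square per degree of freedom over genes, and no p-value was computed. Dispersions came from edgeR 4.0.16 and DESeq2 1.42.0 in R 4.3.3, other steps from Python 3.11.15 with pandas 2.3.3, numpy 2.4.6, scipy 1.17.1, statsmodels 0.14.6 and matplotlib 3.10.9. Gene positions and transcript lengths were taken from GENCODE vM21 for 22647 matched genes. The scripts were tested on simulated data. Alternatives covered the limit, the unit, the scaling, the pseudocount, the transcript length, GC content and leaving out each library.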

Additional observations from a re-analysis of the deposited data

How the results depend on the processing

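The count of expressed genes stayed within 1.5 times 10330 under every alternative run. The share of the 100 highest genes was 33.7% of FPKM and 24.2% of normalized counts. A 2-fold spread was found for 741 genes, and for 465 after correction for GC content, an alternative chosen after seeing the data, while 3261 genes passed at 1.5-fold and 36 at 4-fold. The median coefficient of variation was 15.9% and 13.3% after that correction. Leaving out 1 library gave 10368 to 10487 expressed genes, shares of 32.8% to 34.8%, 161 to 515 genes with a 2-fold spread, medians of 10.3% to 15.3% and biological coefficients of variation of 16.6% to 23.7%, the lowest of the last 3 without Mock 1. Without Mock 3, 343 genes had a 2-fold spread. Scaling by TMM factors moved none of the 105 list deviations by more than its standard error over genes, and GC correction moved 44. With the length of the principal transcript, also chosen after seeing the data, 16 of the 20 highest genes moved by over 1 SD. No paired analysis was possible because the 3 libraries are 1 group, and the knock-down was set beside them for Hif1a only. Counting error is small for most expressed genes, with a median of 3.57%, but 26 of them had fewer than 20 reads in a library.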

Other observations

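The genes in this section were named after their values were seen. Of 39 Hox genes in the table, which set the position of cells along the body axis, 14 were expressed in Mock cells. Hoxa7 was at 27, 33.8 and 31.5 FPKM in Mock 1, 2 and 3, Hoxa10 at 12.3, 14.4 and 11.8 FPKM and Hoxc10 at 11.1, 11.4 and 11.5 FPKM. The posterior genes Hoxd13 and Hoxa13 were at 5.09 ± 0.587 and 2.34 ± 0.208 FPKM (mean ± SD, n = 3), and no Hoxb gene was expressed. Of 51 keratin genes, Krt80 alone passed, and of 1103 olfactory receptor genes 2 did. The widest of the 14 Hox spreads was that of Hoxd10, at 1.69, 1.23 and 2.29 FPKM.

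The p53 pathway was expressed for 12 of 15 genes, with Trp53 at 45.6, 67.6 and 65.2 FPKM, Bax at 79.7 ± 8.22 FPKM and the cell cycle inhibitor gene Cdkn1a at 57.6 ± 13.4 FPKM. Cdkn2a, often lost in cell lines, was at 10.2, 9.76 and 9.63 FPKM. Immediate early and heat shock genes were expressed for 27 of 31, with Hspa8 at 1723 ± 89.6, Hsp90aa1 at 576 ± 90.4 and Fos at 339, 435 and 200 FPKM, and 19 of the 27 were highest in Mock 2 (16 after correction for GC content), as were 30.2% of all expressed genes (30.5% after it).

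Among 15 mitochondrial genes, 9 were expressed. mt-Co1 had between 218917 and 474876 reads per library, while mt-Co2, mt-Co3 and mt-Atp6 had between 0 and 2 reads, although they lie on the same polycistronic transcript. The cause was not tested. Ddx3y, Eif2s3y, Kdm5d and Uty had no read in any Mock library, and Erdr1 was the only gene assigned to the Y chromosome that was expressed, at 1.89, 11.4 and 10.7 FPKM.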
